A study of Arabidopsis thaliana with 24 samples.

Results

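The genotype difference in shoots of the Recovery Period (R) was measured by RNA-seq in 6 of the 24 libraries of the study. Of these, 3 were from Arabidopsis thaliana Col-0 (wR) and 3 from the double mutant dpe2/phs1 (dR), all labelled as whole shoots of 7 weeks, with 3 biological replicates per genotype. For its microscopy and growth measurements the study describes younger plants of this period. Its RNA-seq methods give no age and name leaves as the harvested tissue in each period, and the text below follows the labels. dpe2/phs1 carries mutations in DPE2 and PHS1, and its alleles are not given in the sources used here. All plants grew in 12 h of light and 12 h of darkness without a treatment and were harvested after 9 h of light, and wR and dR below mean the libraries that carry these labels. The other libraries come from the Prior Period (P, shoots of 3 weeks) and from young and mature leaves (M for mature) of the period with reduced starch granule number (RGN, leaves with petioles, 5 weeks). Every deposited gene was considered, and 17908 of 33044 had a mean of at least 1 FPKM (fragments mapped to a gene, divided by its length in kilobases and by the size of the library) in wR or dR and were tested.

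Leaves store part of the carbon fixed by day as starch in the chloroplast and break it down at night to maltose and glucose, which are exported to the cytosol. DPE2, the cytosolic disproportionating enzyme, transfers a glucosyl residue of maltose to soluble glycans, and PHS1, the plastidial phosphorylase, acts on glucan chains inside the chloroplast. Plants without DPE2 cannot use maltose properly and accumulate it. The question put to R is how expression in the mutant differs from Col-0 once starch granules have returned to its chloroplasts.

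The 6 libraries held 19214006 to 20469373 reads, recovered from the FPKM values. A count of 3 reads on a gene of 1 kb corresponds to 0.147 to 0.156 FPKM at this depth. Marker genes of mesophyll summed to 37225 to 46520.5 FPKM, whereas 6 root markers summed to at most 0.783 and 4 seed storage genes to at most 0.292. The 4 guard cell markers summed to 9.64 to 14.9 FPKM in wR and 15.6 to 19.4 in dR without overlap, and the 3 phloem companion cell markers to 71.1 to 114 and 112 to 121. The part of these cell types in the results was not tested. The median SD of a gene between replicates on the log2 scale was 0.221 in wR and 0.129 in dR.

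Long genes were low in the wR libraries. The median deviation of the longest decile of genes from their mean over all 24 libraries, minus that of the shortest decile, was between -2.15 and -0.98 on the log2 scale in the 3 wR libraries, with wR3 the lowest. In the dR libraries it lay between -0.55 and 0.11, and in the other 6 groups between -0.58 and 1.00. The genotype difference followed length accordingly. Its median was -0.35 for genes of up to 927 bases and 0.93 for genes of at least 3198 bases, and 70.8% of the latter were called higher in dR but 0.87% lower. Therefore values are given as deposited, and the counts of lists also after removal of the trend on gene length from each library by a smooth curve (loess). Where a single gene has 1 difference, it is that as deposited. After removal the decile medians lay between -0.02 and 0.01. The part of RNA quality or library preparation in this trend was not tested, and in these 6 libraries the trend and the genotype cannot be told apart.

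**Figure D1:**
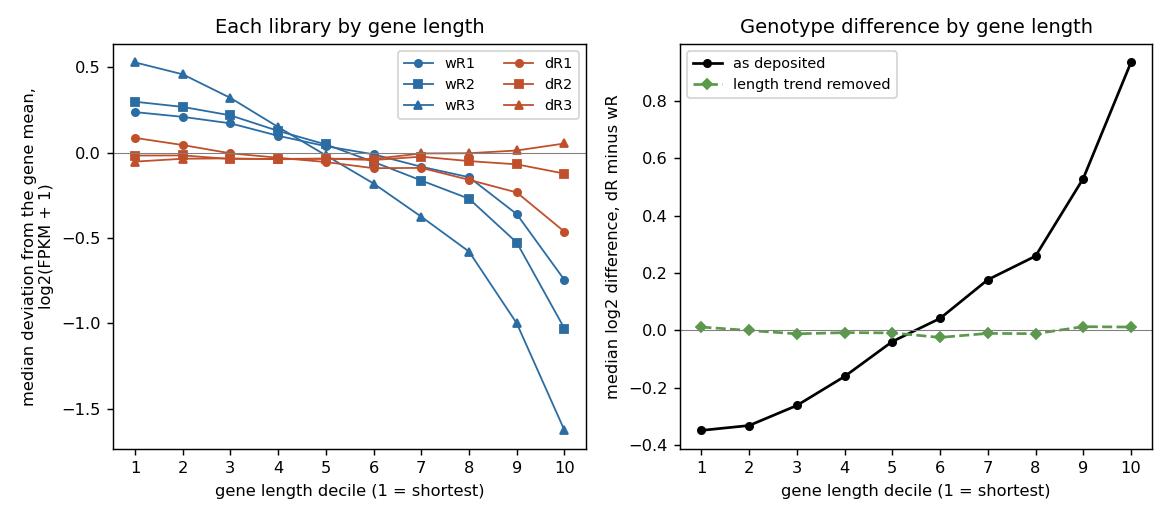
Left, median deviation of log2(FPKM + 1) from the mean of each gene over all 24 libraries, by deciles of the genes ordered by length, for 3 wR (blue) and 3 dR (orange) libraries. Right, median log2 difference between dR and wR by length, as deposited (black) and with the trend removed (green). The wR libraries fall with length, and the difference rises from -0.35 to 0.93 as deposited.

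As deposited, 8652 genes (48.3% of those tested) differed between dR and wR at an adjusted p under 0.05 (limma, Benjamini-Hochberg). Of these, 4510 (25.2% of the genes tested) were higher and 4142 (23.1%) lower in dR. With the length trend removed 8175 genes (45.6%) were called, 4042 (22.6%) higher and 4133 (23.1%) lower. Under both treatments of length 5952 genes (33.2%) were called with the same sign, 2954 (16.5%) higher and 2998 (16.7%) lower. The 3 libraries of one genotype did not overlap the other 3 for 5936 of them (33.1%), 2945 (16.4%) higher and 2991 (16.7%) lower. A change of more than 2-fold under both treatments was found for 1085 genes (6.06%). TPM rescaling, which gives every library the same sum, moved the median of all genes from 0.03 to 0.16 on the log2 scale and the share of higher genes among the calls from 52.1% to 62.4%. As shoots are mixtures, fewer cells of a type and less RNA per cell cannot be told apart in these values.

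The mutated genes did not separate the genotypes in R as deposited. DPE2 (AT2G40840, chromosome 2, 17044932-17051062, plus strand) was at 39.1, 32.8 and 19.1 FPKM in wR and 34.6, 36.9 and 38.3 in dR. PHS1 (AT3G29320, chromosome 3, 11252807-11257814, plus strand) was at 36.2, 26.7 and 15.2 FPKM in wR and 20.3, 23.1 and 24.6 in dR. For both genes the dR libraries lay within the range of wR, and wR3 was the lowest library. The log2 difference was 0.32 ± 0.23 (SE, n = 3 per genotype) for DPE2 and -0.12 ± 0.27 for PHS1, with adjusted p = 0.272 and 0.74 (limma). With the length trend removed they were -0.44 and -0.80, with adjusted p = 0.0106 and 0.00131 (limma), so that the sign for DPE2 turned. In P the same genes differed more, by -1.14 for DPE2 and -2.68 for PHS1. DPE2 had a mean of 98.6 FPKM in Col-0 of P (wP) and 43.8 in the mutant of P (dP). PHS1 was at 145 and 21.5. Between P and R the values of Col-0 thus differed more than those of the mutant, and the cause was not tested. The disrupted part of either gene is not given in the sources used here.

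Other genes were used to compare the labels. A log2 difference of at least 3 between the genotypes in each of P, young and mature leaves, without overlap, was found for 8 genes. This cut was added after the data were seen. In R all 8 went in the labelled direction without overlap. Among them were GPT2, GBSS1, MIOX2 and HIS1-3, with log2 differences in R of 3.62, 2.54, 0.78 and 0.28. The last 2 were thus much smaller in R than in the other groups. MIOX2 was at 0.369, 0.844 and 0.813 FPKM in wR and 1.96, 2.02 and 1.61 in dR. HIS1-3 was at 57.3, 64.9 and 64.1 FPKM in wR and 73.9, 73.4 and 78.6 in dR. AT3G05945, the gene that was lower in the mutant among the 8, was at 63.3, 64.4 and 92.8 FPKM in wR and 3.77, 3.08 and 3.21 in dR. With a difference of at least 2 there were 49 genes, of which 29 kept the direction in R without overlap and 14 took the opposite one. With a difference of at least 1, 455 genes separated the genotypes in the other groups. Of these, 221 kept that direction in R without overlap and 113 took the opposite direction without overlap, and with the length trend removed it was 194 and 80 of 376. Over all genes tested, the wR and dR libraries did not overlap for 61.7%.

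The largest rise was that of GPT2 (AT1G61800, chromosome 1, 22824414-22826902, plus strand), the plastidial glucose 6-phosphate/phosphate translocator that is induced by sugars. It was at 5.09, 5.61 and 5.20 FPKM in wR and 74.5, 79.4 and 76.3 in dR. All dR libraries were far above all wR libraries, by 3.62 ± 0.10 on the log2 scale (adjusted p = 5.54e-06, limma) and by 3.58 with the length trend removed. GBSS1 (AT1G32900), the granule-bound starch synthase that makes amylose, was at 6.89, 4.92 and 4.02 FPKM in wR and 35.2, 34.6 and 34.5 in dR, with a difference of 2.54 ± 0.17. MIOX1 (AT1G14520), an inositol oxygenase, was at 1.44, 1.65 and 0.838 FPKM in wR and 10.1, 12.8 and 16.1 in dR, a difference of 2.60 ± 0.22. The xylosyltransferase A3G2XYLT (AT5G54060), which decorates anthocyanins, rose from 3.89, 2.90 and 3.07 FPKM in wR to 24.5, 23.5 and 20.7 in dR, by 2.48 ± 0.15. The libraries of each genotype lay close together for GPT2 and A3G2XYLT. They were more spread within wR for GBSS1 and within both genotypes for MIOX1.

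Some of the other large rises were on genes with few reads in wR. PHE1 (PHERES1, AT1G65330), a MADS-box gene known for its paternal expression in endosperm, was at 0.6, 0.181 and 0.375 FPKM in wR and 8.68, 9.28 and 9.59 in dR. ATCSLA01 (AT4G16590), of the family of glucomannan synthases, was at 0.297, 0.133 and 0.165 FPKM in wR and 5.84, 5.33 and 5.05 in dR. These wR values stand for a few reads per library, and the differences were 2.89 ± 0.17 and 2.42 ± 0.15 on a scale that understates changes of low genes. The defensin gene PDF1.3 (AT2G26010) was at 13.0, 19.2 and 19.3 FPKM in wR and 139.8, 105 and 95.9 in dR, a difference of 2.66 ± 0.19. With the length trend removed the differences were 3.21 for PHE1, 2.37 for ATCSLA01 and 3.03 for PDF1.3.

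Longer genes among the 12 largest rises lost part of the difference when the trend was removed. CHLH, the H subunit of magnesium chelatase in chlorophyll synthesis, moved from 2.66 to 1.61, and its wR libraries spread widely (100.3, 50.4 and 19.7 FPKM) below those of dR (248, 322 and 337). UBP23, a ubiquitin-specific protease, moved from 2.65 to 2.03 and CLPC2, a chaperone of the plastid Clp protease, from 2.47 to 1.68. TIF3A1, a subunit of translation initiation factor eIF3, moved from 2.45 to 1.66. CAT2, the main leaf catalase, was at 26.8, 20.8 and 13.0 FPKM in wR and 105, 114 and 117 in dR, with 2.47 as deposited and 1.99 without the trend. In each of these genes wR3 was the lowest of the 6 libraries. Means in wP and dP were 268 and 231 FPKM for CHLH and 43.1 and 68.9 for UBP23. They were 67.5 and 55.2 for CLPC2, 85.5 and 107 for TIF3A1 and 139 and 94.2 for CAT2. In these genes wR thus lay below both genotypes of P. A rise or fall here means dR relative to wR, and which genotype changed between the periods was not tested.

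The largest fall among genes with a symbol was that of ATGRP9 (AT2G05440, chromosome 2, 1993038-1994177, plus strand), which encodes a glycine-rich protein. It was at 59.1, 45.3 and 52.5 FPKM in wR and 3.49, 3.92 and 2.62 in dR, lower by -3.62 ± 0.16 on the log2 scale (adjusted p = 4.75e-05, limma). S-ACP-DES6 (AT1G43800), a stearoyl-acyl carrier protein desaturase, was at 32.1, 13.1 and 16.1 FPKM in wR and 1.55, 1.01 and 0.803 in dR, a difference of -3.25 ± 0.31. Both were at a few FPKM at most in dR, and the wR libraries spread more for the desaturase. Genes tied to salicylic acid were among the falls. NIMIN-1, which encodes a protein that binds the regulator NPR1, was at 31.1, 36.0 and 45.9 FPKM in wR and 5.68, 4.42 and 3.93 in dR (-2.76 ± 0.18). DLO1, a hydroxylase that inactivates salicylic acid, was at 47.9, 39.9 and 33.3 FPKM in wR and 5.96, 7.27 and 6.63 in dR (-2.43 ± 0.15). For both genes every dR library was far below the lowest wR library. Means in wP and dP were 22.1 and 8.24 FPKM for ATGRP9 and 0.779 and 0.185 for S-ACP-DES6. They were 5.33 and 3.84 for NIMIN-1 and 2.08 and 0.648 for DLO1, so that wR lay above both genotypes of P.

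MADS-box genes were found on this side as well. AGL42, known as a promoter of flowering, was at 6.85, 6.97 and 7.61 FPKM in wR and 0.086, 0.174 and 0.48 in dR, so that it was nearly undetected in the mutant. MAF5, related to the flowering repressor FLC, was at 24.8, 26.4 and 32.9 FPKM in wR and 3.52, 4.25 and 4.94 in dR. The differences were -2.72 ± 0.17 and -2.47 ± 0.16. Means in wP and dP were 0.456 and 0.232 FPKM for AGL42 and 2.37 and 2.66 for MAF5, all below wR. The other large falls were those of the heavy metal-associated proteins HIPP02 (-2.59) and HIPP14 (-2.46), the peroxidase PER71 (-2.48), the zinc finger protein FLZ15 (-2.45), the methionine sulfoxide reductase MSRB9 (-2.41) and the lipid transfer protein LTP3 (-2.39). All 12 are at most 1603 bases long, and with the length trend removed their differences lay between -3.24 and -2.01.

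**Figure D2:**
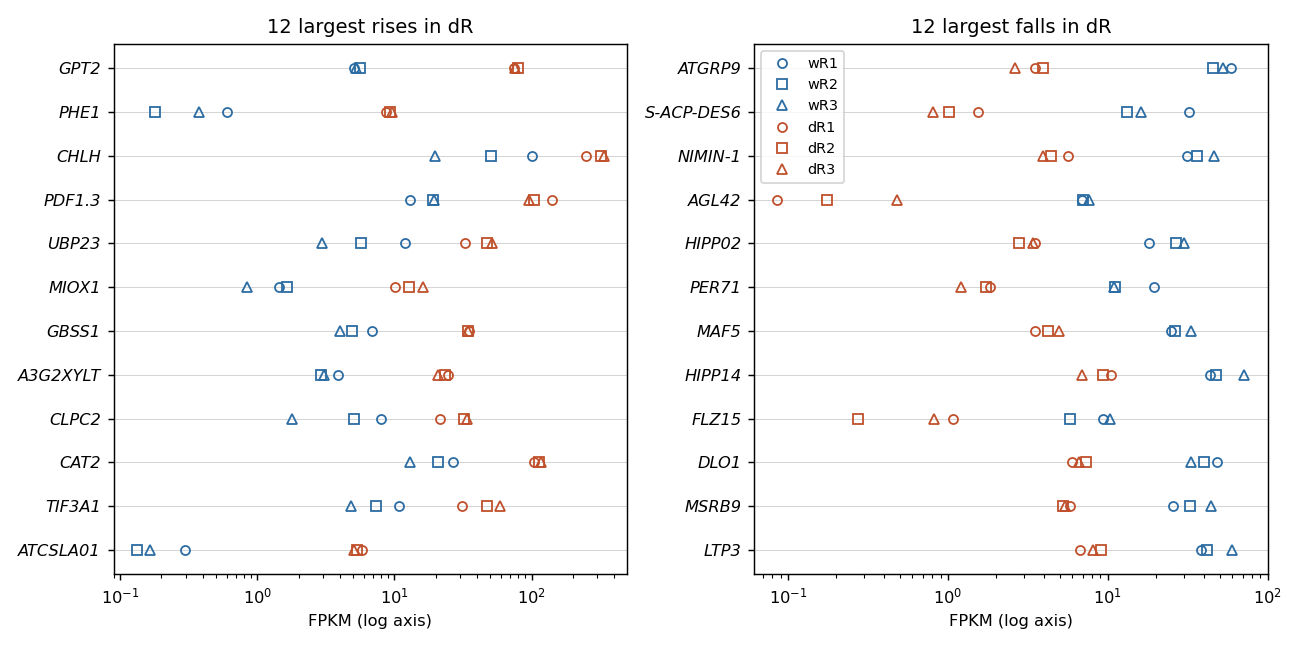
FPKM on a log axis of the 12 largest rises (left) and the 12 largest falls (right) in dR among genes with a symbol that were called under both treatments of length without overlap. Each symbol is 1 library, wR in blue and dR in orange. GPT2 stands at 5.09 to 5.61 in wR and at 74.5 to 79.4 in dR, and for PHE1, ATCSLA01 and AGL42 the lower genotype is below 1 FPKM.

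The bases upstream of the start of 6 genes are shown, because they carry short motifs that were counted over all promoters below. In capitals are the evening element AAAATATCT of clock-regulated genes (GPT2, APRR5, RAB18), the G-box CACGTG (A3G2XYLT), the abscisic acid response element core ACGTGTC (RAB18), the site II element TGGGCC (A3G2XYLT, RAB18, ARP1) and the telo-box AAACCCTA (UBP23), on either strand. Each is 250 bases on the strand of the gene, 5′ to 3′, from the TAIR10.1 genome, whose nuclear genes had the same start and end as the deposited ones for 99.95% of 32548 genes. GPT2 lies at chr1:22824164-22824413, plus strand, A3G2XYLT at chr5:21938397-21938646, minus strand, APRR5 at chr5:8358547-8358796, minus strand, RAB18 at chr5:26519448-26519697, minus strand, ARP1 at chr1:16266303-16266552, plus strand and UBP23 at chr5:23474173-23474422, minus strand.
GPT2: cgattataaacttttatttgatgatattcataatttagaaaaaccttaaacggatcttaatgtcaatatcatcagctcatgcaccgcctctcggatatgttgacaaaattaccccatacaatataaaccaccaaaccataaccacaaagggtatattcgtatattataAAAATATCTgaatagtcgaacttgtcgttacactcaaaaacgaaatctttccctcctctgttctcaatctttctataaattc
A3G2XYLT: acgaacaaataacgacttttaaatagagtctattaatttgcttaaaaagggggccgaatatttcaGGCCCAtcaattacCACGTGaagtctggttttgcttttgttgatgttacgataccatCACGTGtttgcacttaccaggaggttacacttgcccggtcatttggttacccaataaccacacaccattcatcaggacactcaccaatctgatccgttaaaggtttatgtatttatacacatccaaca
APRR5: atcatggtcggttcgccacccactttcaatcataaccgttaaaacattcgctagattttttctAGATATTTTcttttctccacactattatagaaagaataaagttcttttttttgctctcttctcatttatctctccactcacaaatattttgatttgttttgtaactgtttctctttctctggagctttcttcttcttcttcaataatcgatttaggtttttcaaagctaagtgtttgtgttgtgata
RAB18: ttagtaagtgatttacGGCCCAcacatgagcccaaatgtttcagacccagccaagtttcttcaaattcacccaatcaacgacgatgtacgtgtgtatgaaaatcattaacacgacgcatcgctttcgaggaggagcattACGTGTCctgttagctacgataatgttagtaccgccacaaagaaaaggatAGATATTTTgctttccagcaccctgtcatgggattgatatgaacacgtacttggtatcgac
ARP1: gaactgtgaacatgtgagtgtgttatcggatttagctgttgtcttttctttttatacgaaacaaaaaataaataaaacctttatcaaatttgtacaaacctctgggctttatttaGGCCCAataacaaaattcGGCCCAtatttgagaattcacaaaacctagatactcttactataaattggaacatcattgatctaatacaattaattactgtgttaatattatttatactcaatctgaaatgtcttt
UBP23: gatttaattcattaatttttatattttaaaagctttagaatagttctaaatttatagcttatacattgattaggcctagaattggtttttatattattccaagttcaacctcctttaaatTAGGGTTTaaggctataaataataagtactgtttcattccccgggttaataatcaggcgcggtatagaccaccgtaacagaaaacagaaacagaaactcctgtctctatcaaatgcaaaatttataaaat

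Starch synthesis genes were higher in dR. Of 18 genes tested, 17 were called higher and none lower, against 25.2% of all genes higher, and their median difference was 0.98 compared with 0.03 for all genes. As these genes are long, with a median of 2687 bases, the median with the length trend removed was 0.44. Then 14 (77.8%) were called higher and none lower, against 22.6% and 23.1% of all genes. After GBSS1, the rises that passed under both treatments were largest for MFP1, a thylakoid protein that localizes granule initiation, with 8.13, 7.56 and 3.54 FPKM in wR and 16.3, 28.2 and 42.3 in dR. The dR libraries, above wR by the choice of named genes, also differed among themselves. The difference of 1.98 ± 0.37 became 1.54 without the trend. The ADP-glucose pyrophosphorylase subunits APL3 (19.96, 18.0 and 12.4 FPKM in wR, 44.1, 53.6 and 60.3 in dR, 1.61 ± 0.19) and APS1 (151, 127 and 95.6 FPKM in wR, 282, 315 and 309 in dR, 1.29 ± 0.16) kept most of the difference, at 1.42 and 1.22. Both supply the glucosyl donor of starch, and for both the groups lay far apart. The starch synthase ATSS3 and the branching enzyme SBE2.2 rose by 1.63 and 1.34, and by 0.75 and 0.84 without the trend. SS4, which initiates granules, was at 9.38, 8.59 and 5.98 FPKM in wR and 10.7, 17.6 and 29.1 in dR, and its 1.08 (adjusted p = 0.0259, limma) became 0.32 (adjusted p = 0.242). ISA1, a debranching enzyme, did not pass either way (0.25 and -0.39). Without dR2 or without dR3, 11 of the 18 genes were called higher, while over all genes the number fell from 4510 to 2189 and 2253. As deposited, no gene was called by limma, and none by limma-voom on recovered reads, in the lower direction for starch synthesis, anthocyanin, glucosinolate, phosphate, nitrogen and the Calvin cycle, or in the higher direction for abscisic acid. At an unadjusted p under 0.05 there was 1 such gene for phosphate, 1 for abscisic acid and 0 for the other lists.

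Starch degradation did not move as 1 group. Of 24 genes tested, 10 (41.7%) were called higher and 5 (20.8%) lower, against 25.2% and 23.1% of all genes. With the length trend removed 7 (29.2%) were higher and 6 (25%) lower, against 22.6% and 23.1%, and the median turned from 0.42 to -0.08. The share that was lower was thus near that of all genes. Enzymes that phosphorylate or attack the granule surface were among the rises. BAM3, the main plastidial beta-amylase of leaves, was at 80.7, 55.0 and 34.5 FPKM in wR and 219.8, 282 and 375 in dR. PHS2, the cytosolic phosphorylase that acts next to DPE2 on cytosolic glycans, was at 133, 94.6 and 52.2 FPKM in wR and 330.3, 415 and 455 in dR. The differences were large, 2.39 ± 0.30 and 2.18 ± 0.30, or 2.203 and 1.501 without the trend. The glucan, water dikinases GWD1 and GWD3 rose by 1.93 and 1.46, and by 0.84 and 0.56 without the trend. On the other side, the alpha-amylases AMY1 (-1.46) and AMY2 (-0.88), the plastidial glucose transporter GLT1 (-0.80) and the maltose transporter MEX1 (-0.51) fell under both treatments. GLT1 was at 127, 129 and 122 FPKM in wR and 74.2, 73.9 and 68.1 in dR, and MEX1 at 28.4, 31.7 and 32.7 and 23.6, 20.1 and 20.7. The difference of DPE1, the plastidial disproportionating enzyme, was 0.15 (adjusted p = 0.169, limma). Without dR2 or without dR3 the number of higher genes in the list was 6, while over all genes it fell from 4510 to 2189 and 2253.

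**Figure D3:**
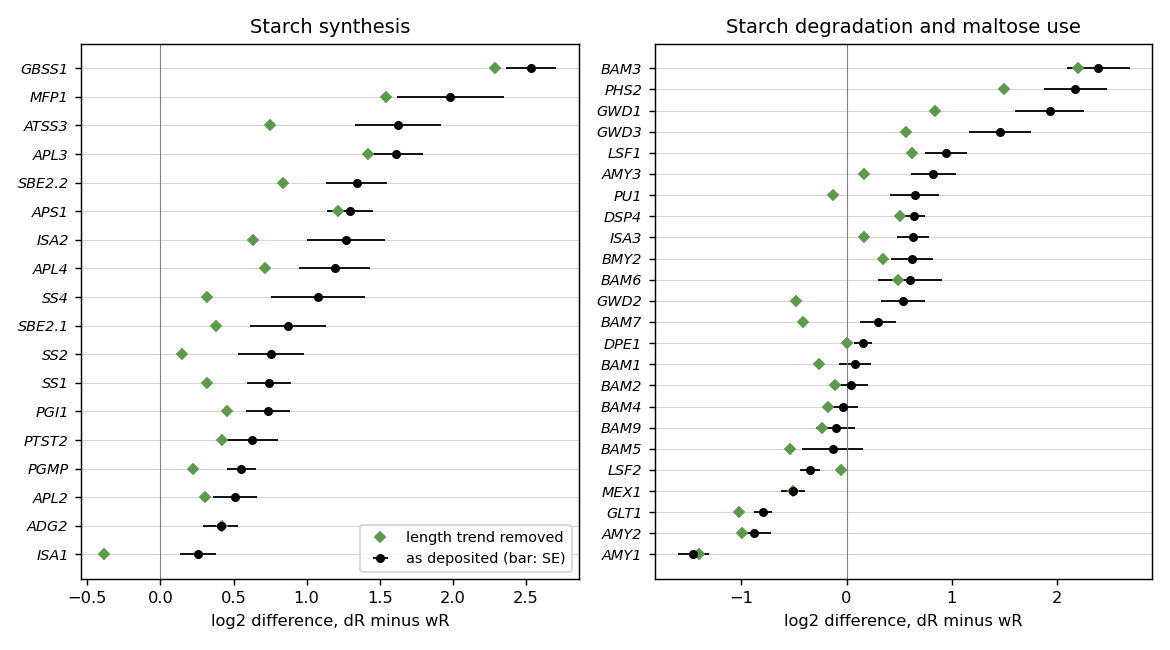
Log2 difference between dR and wR of 18 starch synthesis genes (left) and 24 genes of starch degradation and maltose use (right), as deposited with the standard error (black) and with the length trend removed (green). GBSS1, MFP1, APL3 and APS1 stay above 1 under both treatments on the left, and BAM3 and PHS2 on the right, whereas AMY1 stays below -1.

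Transporters of sugars and phosphates went in both directions. Of 24 tested, 9 (37.5%) were called higher and 6 (25%) lower, against 25.2% and 23.1% of all genes, but 8 (33.3%) higher and 10 (41.7%) lower with the trend removed, against 22.6% and 23.1%. The median turned from 0.14 to -0.04. Besides GPT2, the sucrose exporters SWEET11 (41.1, 43.6 and 46.8 FPKM in wR, 81.7, 87.9 and 74.5 in dR) and SWEET15, known from senescing leaves and seeds (0.0737, 0.108 and 0.112 FPKM in wR, 2.73, 0.846 and 1.12 in dR), rose by 0.88 and 1.15. The hexose importer STP1, which is repressed by sugars, was at 36.7, 42.5 and 44.9 FPKM in wR and 16.1, 14.8 and 12.6 in dR and fell by 1.45 on the log2 scale. SWEET1 (-1.02) and SWEET4 (-0.86) also fell. In sucrose and raffinose metabolism, 8 of 20 genes (40%, against 25.2% of all genes) were called higher and 5 (25%, near the 23.1% of all genes) lower. With the trend removed 7 (35%) were higher and 8 (40%) lower, against 22.6% and 23.1%. The medians were 0.18 and -0.15. The sucrose phosphate synthases SPS4 (2.83, 2.08 and 1.21 FPKM in wR, 8.42, 12.5 and 18.6 in dR) and SPS1 (32.3, 23.4 and 12.4 in wR, 63.0, 83.7 and 91.5 in dR) rose by 2.19 and 1.84, or 1.14 and 1.00 without the trend. The galactinol synthases GOLS2 and GOLS3, the first step of raffinose synthesis, fell. GOLS2 was at 85.3, 95.8 and 88.2 FPKM in wR and 20.6, 18.6 and 17.5 in dR (-2.19 ± 0.10), and GOLS3 at 32.1, 34.5 and 40.5 and 13.7, 13.6 and 13.8 (-1.31 ± 0.12). These 4 genes were named from genes filtered for no overlap between the genotypes, which held for 61.7% of all genes.

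Genes of sugar starvation, of the kinase SnRK1 and its bZIP factors and of trehalose phosphate synthesis, counted as 1 list, were mixed as well. Of 22 tested, 8 (36.4%) were higher and 4 (18.2%) lower, against 25.2% and 23.1% of all genes, and 6 (27.3%) and 5 (22.7%) with the trend removed, against 22.6% and 23.1%, with medians of 0.31 and 0.21. The beta-glucosidase BGLU30 (DIN2) was at 0.295, 0.333 and 0.184 FPKM in wR and 3.05, 3.95 and 5.33 in dR (1.99 ± 0.20), and BZIP11, whose translation is repressed by sucrose, at 17.4, 16.3 and 23.6 and 50.6, 46.4 and 45.1 (1.28 ± 0.15). The trehalose phosphate synthases TPS1 and TPS5 rose by 1.68 and 1.56, or 0.56 and 0.80 without the trend. In contrast, STR15 (SEN1), a dark-induced gene, was at 12.3, 15.9 and 11.4 FPKM in wR and 5.02, 4.49 and 4.89 in dR (-1.28 ± 0.16), and the dormancy-associated DRM1 fell by 0.93. For ASN1, the asparagine synthetase of darkened leaves, the difference was 0.32 (adjusted p = 0.224, limma).

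Anthocyanin genes were higher in dR. Of 15 tested, 14 were called higher and none lower, against 25.2% of all genes higher, and 13 passed with the length trend removed, against 22.6%, with medians of 1.35 and 1.36. The pigments are made from phenylalanine through chalcone synthase (CHS), dihydroflavonol reductase (DFRA) and leucoanthocyanidin dioxygenase (LDOX), and the MYB factors MYB75 (PAP1) and MYB90 (PAP2) activate the late steps. MYB75 was at 9.03, 6.70 and 10.6 FPKM in wR and 35.3, 33.0 and 30.2 in dR (1.81 ± 0.17), and MYB90 at 0.0497, 0 and 0.404 and 1.23, 1.503 and 0.935. DFRA was at 14.7, 11.7 and 8.27 FPKM in wR and 55.8, 61.3 and 65.0 in dR (2.33 ± 0.19). CHS was at 36.4, 21.6 and 16.7 FPKM in wR and 99.5, 102 and 97.3 in dR (2.03 ± 0.24), and LDOX at 16.9, 15.1 and 13.9 and 43.8, 44.7 and 52.8 (1.56 ± 0.12). CHS, DFRA, LDOX and MYB75 were named from genes filtered for no overlap, so their separation is not a result. MYB90, named beside them, did not overlap between the genotypes either. The repressor ATMYBL2 stood at 13.6, 12.3 and 12.4 FPKM in wR and 12.3, 11.7 and 14.4 in dR, so that the groups overlapped, and F3H, a middle step of the pathway, was listed at 0 in the 6 libraries.

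Genes that respond to abscisic acid, dehydration and cold were lower in dR. Of 20 tested, 17 were called lower and none higher, against 23.1% and 25.2% of all genes. With the length trend removed 17 were lower and 1 (KIN1) higher, against 23.1% and 22.6%. The medians were -0.96 as deposited and -0.93 with the trend removed. The dehydrins protect membranes and proteins when water is scarce. RAB18, a dehydrin, was at 49.5, 57.2 and 54.7 FPKM in wR and 15.5, 14.9 and 12.4 in dR (-1.85 ± 0.12). The dehydrin ERD14 was at 889.8, 979.6 and 1203 FPKM in wR and 300.5, 281 and 267 in dR (-1.84 ± 0.12), and XERO2 (LTI30) at 50.5, 49.9 and 56.8 and 15.8, 16.6 and 15.8 (-1.64 ± 0.10). These dehydrins were named from genes filtered for no overlap, and the margin between the groups was wide. The cold-induced KIN2 was at 3889.9, 4576 and 5666 FPKM in wR and 1803, 1482 and 1553 in dR (-1.53 ± 0.16). Members of the signalling chain fell too, such as the abscisic acid synthesis gene NCED3 (-1.26), the phosphatases SAG113 (-1.41), PP2CA (-1.35) and ABI1 (-0.93), and the cold regulators DREB1A, DREB1B and DREB1C (CBF3, CBF1 and CBF2, -1.29, -0.99 and -1.12). The 3 DREB1 genes lie in tandem and are similar in sequence, so their reads may be shared. RD29A (0.82) and LTI65 (-0.21) did not pass either way, and KIN1 was at -0.03 as deposited and 0.34 with the trend removed (adjusted p = 0.837 and 0.0183, limma).

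Defence genes of the salicylic acid pathway were lower. Of 19 tested, 10 (52.6%) were called lower and 1 (5.26%) higher as deposited, against 23.1% and 25.2% of all genes. With the length trend removed 15 (78.9%) were lower and 2 (10.5%) higher, against 23.1% and 22.6%. The medians were -0.74 as deposited and -0.98 with the trend removed. ALD1, needed for the systemic signal pipecolate, was at 8.62, 9.14 and 8.61 FPKM in wR and 1.21, 1.26 and 0.795 in dR (-2.24 ± 0.16). The pathogenesis-related genes BGL2 (PR2) and PR5 were at 720.0, 638 and 540.5 and 668, 709.5 and 764 FPKM in wR and at 179, 181 and 174 and 212, 197 and 195 in dR, and fell by 1.82 each. PAD4 (-1.63) and WRKY70 (-1.46) fell as well. PR1, the usual marker of the pathway, was at 602, 655 and 734 FPKM in wR and 773, 685 and 681 in dR, and its difference was 0.11 as deposited (adjusted p = 0.438, limma) and 0.47 without the trend (adjusted p = 0.000859, limma). FMO1, which makes the N-hydroxylated form of pipecolate, was the member that was higher, by 0.60. Among 14 jasmonate genes, 4 (28.6%) were called higher and 6 (42.9%) lower, against 25.2% and 23.1% of all genes. As many were with the trend removed, against 22.6% and 23.1%. TAT3 (87.2, 103 and 114 FPKM in wR, 22.4, 21.2 and 19.7 in dR, -2.205 ± 0.12) and VSP1 (-1.37) were lower. VSP2 (29.6, 29.1 and 27.1 FPKM in wR, 98.6, 91.7 and 86.4 in dR, 1.66 ± 0.10) and the defensin PDF1.2A (0.75) were higher. VSP1 and VSP2 are similar vegetative storage proteins and went opposite ways.

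Genes of senescence, chlorophyll breakdown and autophagy were lower as well. Of 19 tested, 13 (68.4%) were called lower and 2 (10.5%) higher, against 23.1% and 25.2% of all genes. With the length trend removed 14 (73.7%) were lower and 2 (10.5%) higher, against 23.1% and 22.6%. The medians were -0.79 as deposited and -0.55 with the trend removed. The senescence regulators WRKY53 (16.1, 19.97 and 19.2 FPKM in wR, 5.25, 5.66 and 4.30 in dR, -1.68 ± 0.15) and NAC029 (NAP, 7.32, 7.06 and 6.39 in wR, 1.88, 1.24 and 1.95 in dR, -1.57 ± 0.17) were lower. Both were named from genes filtered for no overlap. ATG8 proteins coat the autophagosome, and 8 of 9 ATG8 genes of the list were called lower, against 23.1% of all genes. The 8 lay between -1.31 for APG8A (ATG8A) and -0.76 for ATG8G, and ATG8B was at -0.48 (adjusted p = 0.0533, limma). The exceptions in the list were SAG12 (1.95, 1.98 and 1.98 FPKM in wR, 2.79, 3.18 and 3.47 in dR, 0.48) and SAG13 (22.8, 24.7 and 25.2 in wR, 39.2, 32.6 and 34.6 in dR, 0.53), which were higher in dR and are markers of senescing tissue.

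**Figure D4:**
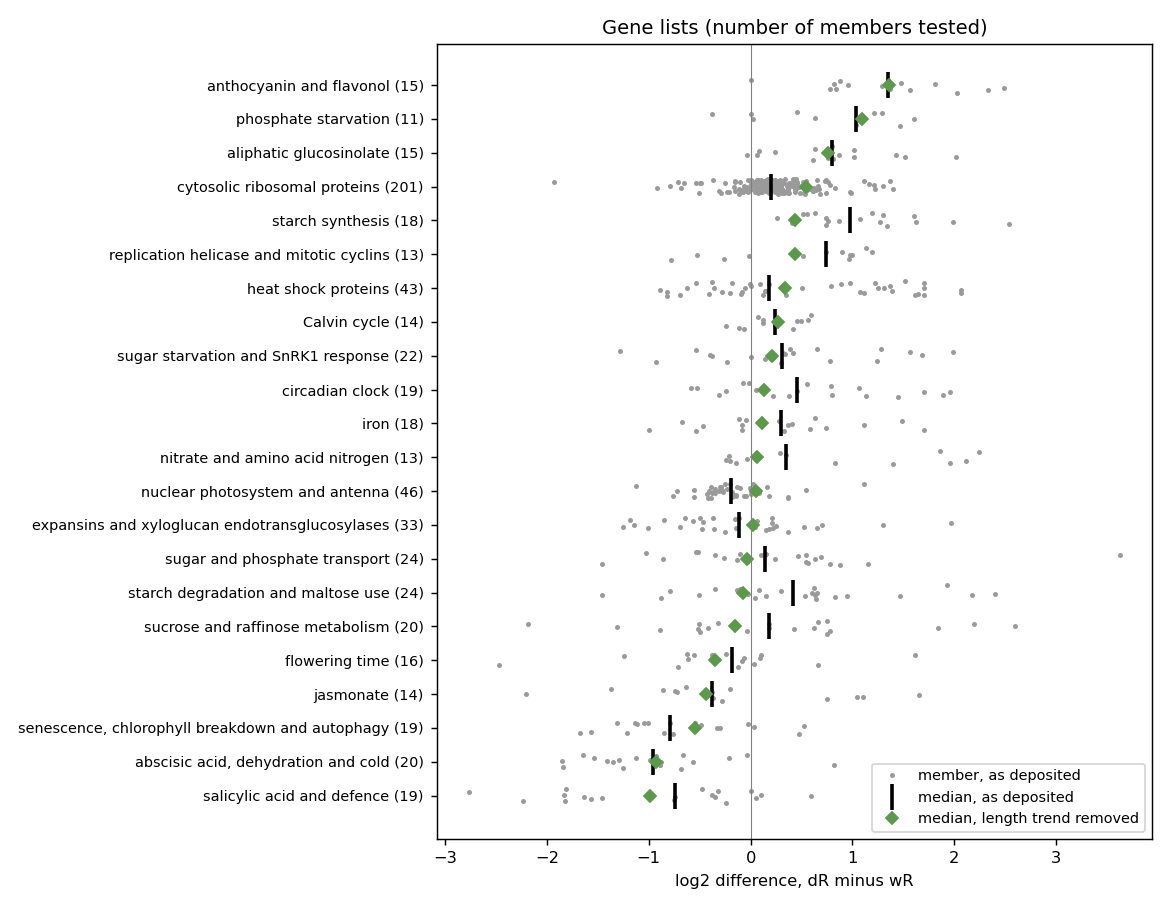
Log2 difference between dR and wR for the members of 22 gene lists (grey points, as deposited), with the median of each list as deposited (black bar) and with the length trend removed (green). Numbers in parentheses are members tested. Anthocyanin, phosphate starvation and glucosinolate genes have medians above 0.7 under both treatments, and salicylic acid and abscisic acid genes medians below -0.7.

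Phosphate starvation genes were higher. Of 11 tested, 7 (63.6%) were called higher and none lower under both treatments, with medians of 1.04 and 1.09. Over all genes 25.2% were higher as deposited and 22.6% with the trend removed. GDPD1, a glycerophosphodiester phosphodiesterase, was at 3.30, 3.20 and 2.69 FPKM in wR and 11.2, 12.02 and 10.8 in dR (1.60 ± 0.14), the phosphate transporter PHT1-4 at 2.02, 1.83 and 1.75 and 6.23, 6.81 and 5.02 (1.28 ± 0.16), and the sensor SPX1 at 5.82, 8.95 and 7.90 and 15.2, 18.1 and 23.2 (1.21 ± 0.20). MGD3, which makes galactolipids, rose by 1.46, whereas PAP17, an acid phosphatase, was at -0.38 (adjusted p = 0.0798, limma). In nitrogen metabolism, 6 of 13 genes (46.2%) were higher and none lower as deposited, against 25.2% and 23.1% of all genes. With the trend removed 6 (46.2%) were higher and 1 (7.69%) lower, against 22.6% and 23.1%, and the median moved from 0.34 to 0.06. The nitrate reductases NIA1 (6.30, 2.65 and 1.19 FPKM in wR, 15.9, 18.3 and 18.0 in dR, 2.25 ± 0.38) and NIA2 (1.86), nitrite reductase NIR1 (89.6, 89.0 and 77.5 in wR, 234, 229 and 216 in dR, 1.399 ± 0.09) and the ferredoxin-dependent glutamate synthase GLU1 (2.11) carry nitrate to amino acids, and they rose by 1.58, 1.17, 1.18 and 0.98 without the trend. Of 15 aliphatic glucosinolate genes, 11 (73.3%) were higher and none lower under both treatments, with medians of 0.80 and 0.76. Of all genes 25.2% were higher as deposited and 22.6% with the trend removed. CYP79F2 (1.80, 0.944 and 0.653 FPKM in wR, 5.87, 8.16 and 8.46 in dR, 2.02 ± 0.23) and CYP79F1 (1.42), neighbours that are close in sequence, begin the core pathway, and the chain-elongating MAM3 rose by 1.51. The regulator MYB29 rose by 0.87, while MYB28 was at 0.08 (adjusted p = 0.689, limma). Of 18 iron genes, 8 (44.4%) were higher and 4 (22.2%) lower, against 25.2% and 23.1% of all genes. With the trend removed 5 (27.8%) and 3 (16.7%) were, against 22.6% and 23.1%, and the median moved from 0.30 to 0.11. The nicotianamine synthases NAS1 (11.5, 11.4 and 10.2 FPKM in wR, 37.2, 39.2 and 37.9 in dR, 1.70 ± 0.11) and NAS4 (1.11) rose, and ORG2 (BHLH38), a regulator induced by iron shortage, was at 1.01, 1.22 and 1.64 FPKM in wR and 0.0947, 0.192 and 0.144 in dR (-0.99 ± 0.17).

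Genes of cytosolic ribosomal proteins depended on how length was treated. They are short, with a median of 951 bases, and of 201 tested 76 (37.8%, against 25.2% of all genes) were called higher and 10 lower as deposited, with a median of 0.20. With the trend removed 177 (88.1%, against 22.6%) were higher and 4 lower, with a median of 0.54. Hence the direction of the median was the same, and the number of calls was not. Without wR2, dR2 or dR3 the count of higher ribosomal genes as deposited was 39, 40 and 48, while over all genes it fell from 4510 to 2963, 2189 and 2253. The large subunit gene ARP1 was at 342, 246 and 142 FPKM in wR and 532, 532 and 538 in dR (1.22 ± 0.27). Many ribosomal proteins are encoded by near-identical gene copies, so reads may be split among them. Of 43 heat shock genes, 19 (44.2%) were higher and 9 (20.9%) lower, against 25.2% and 23.1% of all genes. With the trend removed 19 (44.2%) and 7 (16.3%) were, against 22.6% and 23.1%. The medians were 0.18 and 0.33. The organellar chaperones HSP90-5 (46.4, 39.0 and 21.2 FPKM in wR, 127, 152 and 158 in dR, 2.07 ± 0.25) and HSP70-10 (2.07) rose, by 1.57 and 1.70 without the trend, and the small heat shock protein HSP18.5 fell by 0.89. Of 13 genes of the replication helicase and of mitotic cyclins and their kinases, 8 (61.5%) were higher and 2 (15.4%) lower as deposited. Of all genes 25.2% and 23.1% were. With the trend removed 5 (38.5%) were higher and 2 (15.4%) lower, against 22.6% and 23.1%. MCM3, a helicase subunit, was at 3.66, 2.34 and 1.39 FPKM in wR and 4.73, 6.61 and 9.06 in dR (1.19 and 0.57). Without wR2, dR2 or dR3, 3, 1 and 0 of the 13 genes were called higher, while over all genes it was 2963, 2189 and 2253, against 4510 with all libraries.

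Shares of photosynthesis genes called were mostly near or below those of all genes. Of 46 nuclear genes of photosystems and antennae, 4 (8.70%) were called higher and 11 (23.9%) lower as deposited, against 25.2% and 23.1% of all genes. With the length trend removed 12 (26.1%) were higher and 6 (13.0%) lower, against 22.6% and 23.1%, and the median turned from -0.19 to 0.05. LHCB4.3, a minor antenna protein, was lower both ways, with 72.6, 82.4 and 74.0 FPKM in wR and 36.1, 32.4 and 34.9 in dR (-1.12 ± 0.10). In the Calvin cycle, 3 of 14 genes (21.4%, below the 25.2% of all genes) were higher and none lower, GAPB (0.59 ± 0.11), RBCS-2B (0.42 ± 0.09) and CFBP1 (0.46 ± 0.15), whereas with the trend removed 6 (42.9%, against 22.6%) were higher. Of 33 expansins and xyloglucan endotransglucosylases, which loosen cell walls, 5 (15.2%) were higher and 11 (33.3%) lower as deposited, against 25.2% and 23.1% of all genes. With the trend removed 12 (36.4%) were higher and 8 (24.2%) lower, against 22.6% and 23.1%, so that the share lower was near that of all genes. XTH31 (24.4, 29.2 and 32.3 FPKM in wR, 120.5, 114 and 107 in dR, 1.96 ± 0.12) rose and EXPA8 (80.1, 93.5 and 134 in wR, 48.4, 44.7 and 38.0 in dR, -1.18 ± 0.19) fell under both treatments.

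Of 16 flowering genes 8 passed as deposited, and of these SMZ and TOE2 were higher in dR and the others lower. Hence 6 (37.5%) were called lower and 2 (12.5%) higher as deposited, against 23.1% and 25.2% of all genes. With the length trend removed 8 (50%) were lower and 1 (6.25%) higher, against 23.1% and 22.6%. The medians were -0.18 as deposited and -0.35 with the trend removed. Next to MAF5, MAF4 was at 3.49, 4.32 and 4.78 FPKM in wR and 1.74, 1.06 and 0.86 in dR (-1.24 ± 0.20), and SVP, which represses the transition, fell by 0.61. SOC1, which promotes it, was at 32.2, 38.7 and 54.9 FPKM in wR and 29.2, 25.2 and 24.7 in dR, and its -0.62 (adjusted p = 0.0264, limma) did not pass without wR2, dR2 or dR3. SMZ, a repressor of the AP2 family, was at 0.279, 0.274 and 0.227 FPKM in wR and 3.62, 2.45 and 2.57 in dR (1.61 ± 0.17), and TOE2, of the same family, rose by 0.66 as deposited but not with the trend removed (0.08). FT, TSF, FLC and CO were below 1 FPKM in all 6 libraries. Of 10 markers of inflorescences and floral organs, 1 was expressed enough to be tested, TFL1, at 2.46, 0.842 and 2.39 FPKM in wR and 0, 0.298 and 0.598 in dR (-1.13 ± 0.29). The summed level of the 10 was 1.90 to 4.02 FPKM in wR and 0.508 to 1.81 in dR. The part of inflorescence tissue in the results was not tested.

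Clock genes went in both directions, with the larger changes upward. Of 19 clock genes tested, 8 (42.1%) were called higher and 3 (15.8%) lower, against 25.2% and 23.1% of all genes. With the trend removed 8 (42.1%) were higher and 4 (21.1%) lower, against 22.6% and 23.1%. The medians were 0.45 as deposited and 0.13 with the trend removed. The pseudo-response regulators APRR5 (30.7, 23.9 and 12.1 FPKM in wR, 70.4, 81.6 and 87.7 in dR, 1.89 ± 0.29) and APRR7 (11.8, 8.40 and 4.24 in wR, 22.8, 32.7 and 45.1 in dR, 1.96 ± 0.34) rose, by 1.92 and 1.26 without the trend. GI, which acts with FKF1 on flowering time, was at 25.5, 15.9 and 7.03 FPKM in wR and 37.7, 55.0 and 56.7 in dR (1.71 and 0.73). CCA1, a morning gene, was low in all libraries but higher in dR (0.348, 0.278 and 0.0664 FPKM in wR, 1.70, 1.29 and 2.09 in dR, 1.13 ± 0.18). APRR1 (TOC1) was at -0.02 as deposited and -0.52 without the trend (adjusted p = 0.883 and 0.00783, limma). Without dR2 or dR3, 5 clock genes were called higher, while over all genes the number fell from 4510 to 2189 and 2253.

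In the promoters of 17181 tested protein-coding genes, from 250 bases before to 50 after the gene start, the telo-box AAACCCTA was found on either strand in 5.63%. It was in 10.5% of the 2842 promoters of genes higher in dR under both treatments without overlap and in 2.34% of the 2859 of genes lower. The site II element TGGGCC was in 20% of all promoters, 26.4% of the former and 13.4% of the latter. Both are frequent in ribosomal protein genes, of which 47.8% held a telo-box and 64.2% a site II element. Without the ribosomal protein genes the telo-box was in 5.13% of all, 9.43% of higher and 2.24% of lower genes, and the site II element in 19.5%, 25.2% and 13.3%. The abscisic acid response element core ACGTGTC was in 5.08% of all promoters, 4.86% of higher and 6.44% of lower genes, and in 5 of 20 (25%) of the abscisic acid list. It was in more of the clock (31.6%), photosystem (30.4%), iron (27.8%) and senescence (26.3%) lists, and in less of the other lists. The evening element AAAATATCT was in 3.22%, 3.98% and 3.64%, and in 8 of 19 of the clock list. The G-box CACGTG, which can overlap with ACGTGTC, was in 9.05%, 8.52% and 10.7%, the W-box TTGACC in 14.3%, 14.3% and 15.1%, GATAAG in 15%, 14.8% and 16.2%, and TATCCA in 16.7%, 16.6% and 19.5%. These shares describe matches of letters and were not tested.

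The genotype difference in R was set against that in P, the other period labelled as shoots, from separate libraries. In P, 7990 of 18133 genes (44.1%) were called. The difference between R and P itself, the interaction of genotype and period, was called for 9198 of 18757 genes (49%), and for 7896 (42.1%) with the length trend removed (limma). Across 17284 genes tested in both, the Pearson correlation of the differences was 0.044 as deposited and 0.239 with the trend removed, a description over genes, which are not independent. Of 2874 genes higher in R under both treatments, 1226 were also called higher in P and 360 lower, while over all genes tested in P 26.7% were higher and 17.4% lower. Of 2794 genes lower in R, 618 were called lower in P and 663 higher. In mature leaves of RGN, of 2905 genes higher in R, 1097 were called higher and 1199 lower, and of 2890 genes lower in R, 907 were called lower and 1331 higher, while over all genes 40.7% were higher and 35.5% lower there (76.2% called). The interaction between R and these leaves was called for 12859 of 18904 genes (68%), but tissue, age and period differ together in it.

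The median genotype difference of abscisic acid and cold genes was 1.36 in P and -0.96 in R. RAB18 was at 5.39 ± 0.581 in wP and 29.1 ± 1.33 in dP FPKM (SD, n = 3), the reverse of its order in R, and XERO2 at 2.36 ± 0.682 in wP and 23.8 ± 1.59 in dP. The interaction was -4.09 for RAB18 and -4.55 for XERO2 (adjusted p = 3.39e-08 and 4.28e-08, limma), and -3.56 and -3.95 with the trend removed. The lipid transfer protein LTP3 was at 4.58 ± 1.22 in wP and 18.1 ± 0.646 in dP FPKM, the cadmium resistance protein PCR1 at 24.5 ± 3.41 in wP and 109.5 ± 2.81 in dP, and the chitinase CHI (AT2G43570) at 2.89 ± 0.906 in wP and 31.5 ± 2.09 in dP. All 3 were higher in the mutant in P and lower in R. In contrast, anthocyanin genes were higher in the mutant in both periods, with medians of 1.79 in P and 1.35 in R, as was GPT2, with 4.83 in P and 3.62 in R. Starch synthesis genes had a median of 0.19 in P and 0.98 in R, and the median of salicylic acid genes was 0.26 in P and -0.74 in R. These list medians are as deposited, and P had a length trend too. Long minus short genes lay between 0.01 and 1.00 in wP and between 0.02 and 0.11 in dP. With the trend removed the medians in R were 0.44 for starch synthesis and -0.98 for salicylic acid. The part of gene length in the medians of P was not tested.

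Among genes with a symbol called in R under both treatments, the 5 largest interactions in the other direction were on long genes. SPS4, GLU1, TSS, a tetratricopeptide repeat protein, LRX3, a cell wall extensin, and the kinesin KIN7F are between 3088 and 6117 bases long. Their genotype differences in P lay between -1.90 and -1.03 and in R between 1.52 and 2.25. The interactions were between 3.22 and 3.57 as deposited and between 1.91 and 2.696 with the trend removed.

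**Figure D5:**
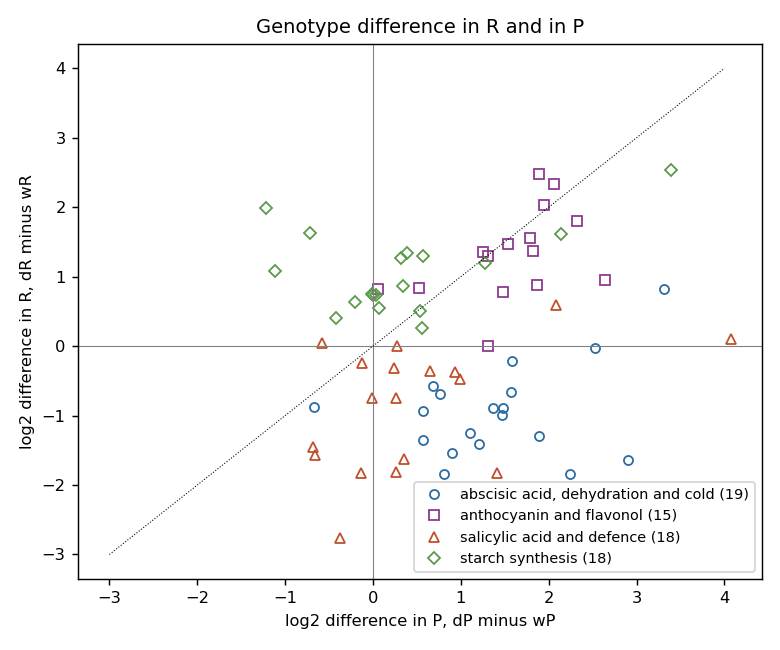
Genotype difference in R against that in P on the log2 scale, as deposited, for the members of 4 lists. Each point is 1 gene (number of genes tested in both in parentheses), and the dotted line marks equal differences. Anthocyanin genes (squares) lie above 0 on both axes or at 0 in R, whereas abscisic acid and cold genes (circles) are above 0 in P and below 0 in R, except RD29A, above 0 in both, and PXG3, below 0 in both.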

How the data were processed

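Total RNA had been made into libraries with a NEBNext Ultra RNA kit. Paired-end clean reads had been mapped with HISAT2, and the processing notes of the submitters also name featureCounts, CASAVA and TAIR10. Versions, RNA selection and strand setting were not given in the sources used here. The authors deposited FPKM values of 33044 genes, 1 column per library, with no pooling of replicates. The DESeq2 test of counts in the study was not repeated, as the deposited unit is FPKM, and limma-voom on reads recovered from it was an alternative. The total of each library was fitted from the steps of low FPKM values, and with 1 fitted length per gene 100% of nonzero values were whole reads (tolerance 0.005), against 55.3% with listed lengths. Replicates differed by more than sampling noise, with a mean chi-square per gene of 5.52 to 68.4. The methods of the study call the 3 libraries of a group biological replicates.

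Genes with a mean of at least 1 FPKM in wR or dR were compared over the 6 libraries of R after adding a pseudocount of 1 and taking log2. The test was limma 3.58.1 under R 4.3.3, using lmFit and eBayes (trend on), and each genotype had 1 mean and no block, and p-values were adjusted over all genes (Benjamini-Hochberg, 0.05). The scripts were tested on simulated data. The length trend was removed per library by loess (span 0.3) of the deviation of a gene on log2 of its length. Interactions were fitted over 12 libraries of both periods. Python 3.11.15, numpy 2.4.6, pandas 2.3.3 and matplotlib 3.10.9 were used for the rest.

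Genes named were DPE2 and PHS1, and the 12 largest rises and falls among nuclear genes with a deposited symbol called under both treatments of length without overlap. Up to 5 members per list and the 5 largest interactions in each direction passed the same filter. For these genes a lack of overlap was thus fixed by the choice. Further list members are named with their values. The members and lists were chosen with earlier results of these data known. A list member was used where the deposited or RefSeq name paired with its locus, and SS5, PTST1, PTST3, PII1, ESV1, LESV, VI1, IMA1, IMA2 and IMA3 did not pair. Ribosomal, heat shock, photosystem and cell wall families were taken by name or description. Alternatives were a pseudocount of 0.1, no filter, a filter of 5 FPKM, median-of-ratios, quantile and TPM rescaling, a fit over 24 libraries, a replicate block, sample quality weights, limma-voom on recovered reads and each library left out. Leaving out libraries with the length trend removed, and the genes with a log2 difference of at least 3, were added after the data were seen.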

Additional observations from a re-analysis of the deposited data

Results flagged for a closer look

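The genotype difference in R and that in P, both labelled as shoots, differed for 9198 genes by the interaction (limma, adjusted p under 0.05), and R and mature leaves of RGN differed for 12859 genes. Among genes with a symbol called in R under both treatments of length, the largest interactions upward were those of GLU1 with 3.57, TSS with 3.53, LRX3 with 3.42, KIN7F with 3.24 and SPS4 with 3.22 on the log2 scale, all higher in dpe2/phs1 in R and lower in P. With the length trend removed they were 2.12, 2.00, 2.696, 2.16 and 1.91 in the same order. The largest downward were XERO2 with -4.55, LTP3 with -4.19, PCR1 with -4.17, RAB18 with -4.09 and CHI with -4.01, all higher in dpe2/phs1 in P and lower in R. With the length trend removed they were between -3.95 and -3.52.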

How the results depend on the processing

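The counts of genes called kept within 1.5 times under pseudocount, filters, rescaling, the fit over 24 libraries, limma-voom and removal of the length trend. With sample quality weights, 13032 genes were called, 6268 of them lower. Samples with the same number did not deviate together (correlations of -0.44, 0.08 and -0.43, or -0.21, 0.03 and -0.24 with the length trend removed). Such values cannot exclude pairing, because the deviations of 3 libraries within a group depend on each other. With the replicate block 5061 genes were called, 2469 higher and 2592 lower. Leaving out 1 library gave between 4728 and 9716 genes, 2189 to 5356 higher and 2539 to 4360 lower. Counts were lowest without dR2 and dR3 (4728 and 4935), and without wR2 2963 genes were higher. With the trend removed the range was 5718 to 9026. DPE2 turned to -0.44 with the trend removed, also with the replicate block, and PHS1 to 0.018 with TPM rescaling and 0.15 without wR1, while it passed the threshold without wR3 (-0.45) and with the trend removed (-0.80). Of genes that separated the genotypes elsewhere by at least 2 on the log2 scale, 29 kept their direction in R without overlap and 14 took the other, and by at least 3 it was 8 and 0. List medians of starch degradation, sucrose and raffinose, transport, photosystems and expansins changed sign with the trend removed (for expansins also without dR3, for sucrose also with a filter of 5 FPKM), and those of photosystems and heat shock proteins with quantile normalization. The causes were not tested. A count of 0 in a library allows up to 3 reads.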
